A study of Mus musculus with 14 samples.

Results

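Genes of 5 chemokine receptors of macrophages, Cx3cr1, Ccr1, Ccr2, Cxcr4 and Ccrl2, were followed in the RNA of cultured mouse macrophages that had been grown from bone marrow precursors. They are 5 of the 47937 genes counted, were found by Ensembl identifier, and all 5 passed the filter on low counts. They were chosen by their measured differences in counts between treated and untreated macrophages, batch by batch. Those differences are therefore given below as a description, with no p-value.

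All libraries are labelled wild type, which batch 3 goes against for the lysozyme gene Lyz2, as described below. Of 14 libraries, 3 were made after the supernatant of mast cell intracellular traps, here called trap supernatant, 5 after mast cell supernatant, and 6 without treatment. Supernatants acted for 3.5 h. There were 3 batches, per the labels: trap supernatant has 1 library in each, mast cell supernatant has 2 in batches 1 and 3 and 1 in batch 2, and untreated cells have 2 in each. Whether the libraries stem from different animals or cultures is not stated in the labels, and the spread behind each p-value may therefore be technical. How the supernatants were prepared is not given in the labels.

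Chemokine receptors are G protein-coupled receptors that steer leukocytes along gradients of chemokines. Ccr2 is the receptor by which inflammatory monocytes follow Ccl2 out of the bone marrow, and Ccr1 answers Ccl3, Ccl5 and related inflammatory chemokines. Cx3cr1 binds fractalkine and is high on patrolling monocytes and many resident macrophages, Cxcr4 binds Cxcl12 and holds leukocytes in the marrow, and Ccrl2 is an atypical member that binds chemerin without G protein signalling and presents it to neighbouring cells.

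In these macrophages Cx3cr1 transcripts were lower with either supernatant in every batch. Ccr1 and Ccr2 were higher or overlapped with untreated cells, depending on the batch. Cxcr4 and Ccrl2 were above untreated cells in batch 1 and below them in batch 3, with both supernatants.

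Of the members, 4 lie on chromosome 9 (GENCODE release 21 for the mouse, GRCm38). Ccrl2 spans 111054486 to 111057519 on the minus strand, Cx3cr1 119901616 to 120069879 on the minus strand, Ccr1 123962124 to 123968692 on the minus strand, and Ccr2 124101950 to 124113557 on the plus strand. Ccr1 lies 8551 bases from Ccr1l1 and 53280 bases from Ccr3, and Ccr1 and Ccr2 both lie in a cluster of receptor genes. Cxcr4 lies apart, on chromosome 1 from 128588199 to 128592293, minus strand. Genes of this cluster, such as Ccr1 and Ccr1l1, are related, and how reads matching more than one of them were counted is not given in the sources used here. Of Cx3cr1, 78 exon bases are shared with an antisense transcript, Gm33858. The library kit marks strand, per the labels' protocols, but the strand setting of the counting is not given.

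The 250 bases upstream of the RefSeq start site (GRCm38.p6) are shown for 3 members: Cx3cr1, which was lower in every batch, and Cxcr4 and Ccrl2, whose differences from untreated cells had opposite signs in batches 1 and 3. Each is printed 5′ to 3′ on the gene's own strand, here the minus strand, and ends at the base before the start site. Cx3cr1 is chr9:120068297-120068546, Cxcr4 is chr1:128592300-128592549 and Ccrl2 is chr9:111057519-111057768, the upstream window of 1 of 3 listed start sites. Capitals mark matches to the motifs searched.
Cx3cr1: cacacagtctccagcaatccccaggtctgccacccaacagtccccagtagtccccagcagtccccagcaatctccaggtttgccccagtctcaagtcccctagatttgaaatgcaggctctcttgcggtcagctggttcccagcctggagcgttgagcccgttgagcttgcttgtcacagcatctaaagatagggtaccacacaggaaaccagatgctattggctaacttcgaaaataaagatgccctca
Cxcr4: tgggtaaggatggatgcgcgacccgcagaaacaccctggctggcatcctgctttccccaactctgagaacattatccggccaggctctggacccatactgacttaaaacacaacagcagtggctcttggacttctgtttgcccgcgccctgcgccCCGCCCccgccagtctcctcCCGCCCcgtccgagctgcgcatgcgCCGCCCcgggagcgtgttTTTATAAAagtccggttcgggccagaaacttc
Ccrl2: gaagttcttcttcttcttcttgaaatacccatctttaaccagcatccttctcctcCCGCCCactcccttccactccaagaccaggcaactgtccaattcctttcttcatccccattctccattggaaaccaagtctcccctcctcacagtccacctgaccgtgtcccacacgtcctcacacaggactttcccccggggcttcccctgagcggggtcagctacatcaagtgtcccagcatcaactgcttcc

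The motifs, chosen after the data had been seen, were searched on both strands: the cAMP response element (CRE) TGACGTCA and its core TGACG, AP-1 (TGANTCA), NF-kB, PU.1 (GAGGAAGT), C/EBP (TTGCNNAA), the GC box (GGGCGG) and the TATA box (TATAAA). The core lies within the CRE, so any window with the whole element counts for both. Counted back from -1 at the base before the start, the Cxcr4 window held GC boxes on the reverse strand, read as CCGCCC, at -95, -75 and -50. It also held a TATA box at -30 that overlaps its own reverse match at -32. GC boxes occur in 32.7% of the 32851 windows of the same length upstream of all RefSeq start sites, and TATA boxes in 12.4%. The Ccrl2 window printed held a GC box at -195. The windows of its other start sites held the CRE core, which occurs in 17.8% of all windows, at -218 and -244; they overlap, so this is the same site counted from different starts. In the windows of Cx3cr1, Ccr1 and Ccr2 no motif searched was found. RefSeq and GENCODE place some starts differently. The Cx3cr1 window lies inside the GENCODE span given above, so the bases upstream of that span were not searched. The Ccr2 window, chr9:124101933-124102182, begins shortly before the GENCODE start and runs past it. The whole CRE occurs in 1.55% of all windows, AP-1 in 6.75%, NF-kB in 1.41%, PU.1 in 2.44% and C/EBP in 9.56%. GC content was 53.6% for Cx3cr1, 61.2% for Cxcr4 and 54.0% for Ccrl2, and the median of all windows was 52.4%. A match is a description of the letters and not a site shown to be used.

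The libraries held 11729073 to 22720419 counts, and each member had between 198 and 6413 counts in any library. Levels are CPM, counts scaled to 1e6 per library, after TMM scaling, which adjusts for differences in RNA composition. The leading principal component carried 34.0% of the variance and 97.8% of it lay between batches, so values are given batch by batch. Lyz2, the lysozyme gene and 1 of 12 macrophage markers, was all but missing from batch 3. It had 1 or 2 counts in each of the 5 libraries of that batch, with both supernatants and untreated, against 4720 to 10886 CPM in the other libraries. It was the 1 gene below 0.5 CPM in all libraries of a batch and above 5 CPM in all others. The libraries labelled wild type in batch 3 thus differ from the rest at this gene, and its part in the members' values was not tested. Among the 11 other macrophage markers, edgeR called Mertk lower with both supernatants at a false discovery rate of 0.05. Its means were 33.1 CPM with trap supernatant, 32.8 CPM with mast cell supernatant and 54.7 CPM in untreated cells. Cd14 was called higher with mast cell supernatant. The 11 markers summed to 10597 to 11606 CPM in batch 1, 8320 to 9125 CPM in batch 2 and 11064 to 11987 CPM in batch 3. Each member is therefore also given without batch 3, and of the calls named below for other genes, those of Rgs14 for trap supernatant and of Ptafr and Vav1 for mast cell supernatant were lost without it. Of 12 monocyte markers, Ly6c1 was at 0 in every group, and the sum moved with the batch. In batch 1 it was 247 CPM with trap supernatant, 249 and 316 CPM with mast cell supernatant and 106 and 110 CPM in untreated cells. In batch 2 it was 178, 249, and 185 and 187 CPM in the same order of groups, and in batch 3 it was 135 CPM with trap supernatant, 99.4 and 105 CPM with mast cell supernatant and 140 and 142 CPM in untreated cells. The sum was thus above untreated cells in batch 1 and below them in batch 3 with both supernatants, as Cxcr4 and Ccrl2 were, and its part in their values was not tested. Nr4a1 had the highest mean of this list with trap supernatant (59.6 CPM) and with mast cell supernatant (82.6 CPM). Its libraries ran from 18.1 to 140 CPM and from 7.46 to 198 CPM, against 12.8 to 34.6 CPM in untreated cells. How far Nr4a1 made the sum move was not tested, and the sum need not follow monocyte content. In bulk RNA, fewer cells of a type and less RNA per cell cannot be told apart.

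Cx3cr1, the fractalkine receptor gene (ENSMUSG00000052336.6), was lower with both supernatants. With trap supernatant it had 37.8 CPM in batch 1, 96.6 CPM in batch 2 and 37.9 CPM in batch 3. With mast cell supernatant it had 40.1 and 31.6 CPM in batch 1, 61.5 CPM in batch 2, and 32.9 and 32.3 CPM in batch 3. Untreated cells had 113.3 and 106.2 CPM in batch 1, 139.5 and 139.9 CPM in batch 2, and 85.9 and 93.1 CPM in batch 3. Every treated library lay below every untreated library of its batch. Over all libraries the mast cell supernatant and untreated groups did not overlap, whereas the trap library of batch 2, at 96.6 CPM, lay above both untreated libraries of batch 3.

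Group means of Cx3cr1 were 57.4 ± 34.0 CPM with trap supernatant (SD, n = 3), 39.7 ± 12.7 CPM with mast cell supernatant (n = 5) and 113.0 ± 22.8 CPM in untreated cells (n = 6). With batch in the model, the log2 difference from untreated cells was -1.07 ± 0.14 (SE) for trap supernatant and -1.43 ± 0.12 for mast cell supernatant. By batch, the log2 difference of trap supernatant from untreated cells was -1.54, -0.53 and -1.24 in batches 1, 2 and 3. For mast cell supernatant it was -1.62, -1.18 and -1.45. Batch 2 thus had the smallest difference with both supernatants. Leaving out batch 2 gave -1.38 for trap supernatant and leaving out batch 1 gave -0.85. Without batch 3 the values were -0.98 for trap supernatant and -1.41 for mast cell supernatant.

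**Figure D1:**
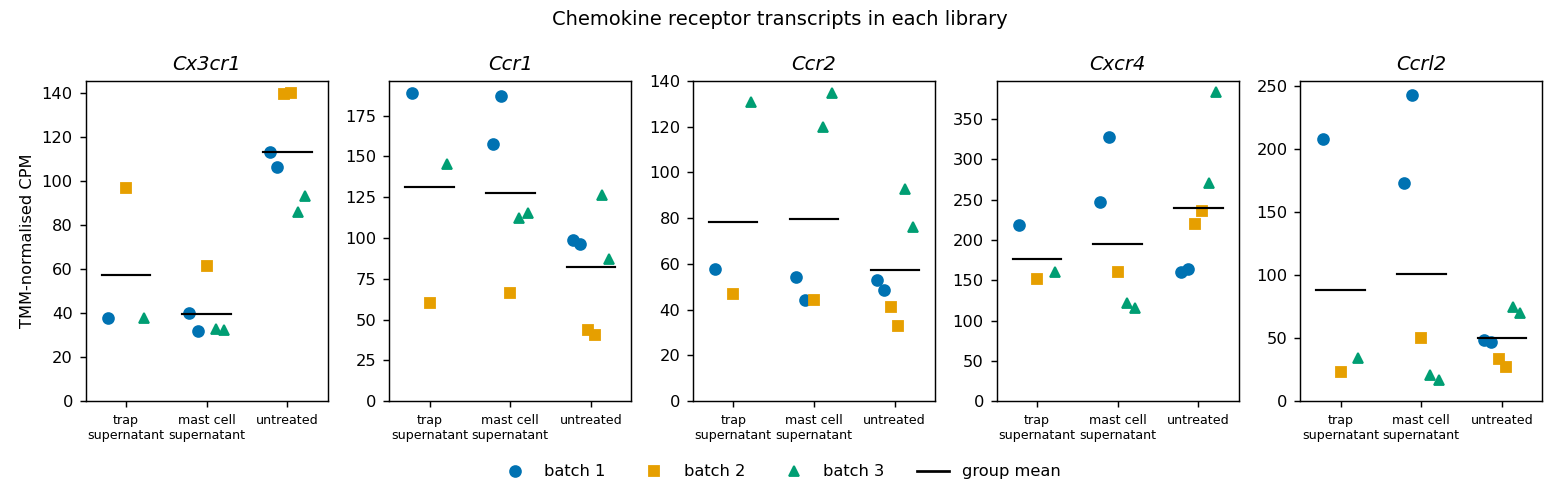
TMM-normalised CPM (y axis, linear, from 0) of the 5 receptor genes in each library, with trap supernatant, mast cell supernatant and untreated cells from left to right. Each point is 1 library, shape and colour mark the batch, and the horizontal line is the group mean. Cx3cr1 lies lower in treated libraries of every batch, between 31.6 and 96.6 CPM against 85.9 to 139.9 CPM in untreated cells, while the order of Cxcr4 and Ccrl2 changes with the batch.

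Ccr1, the receptor gene for Ccl3 and Ccl5 (ENSMUSG00000025804.4), had 188.8, 60.4 and 145.2 CPM with trap supernatant in batches 1, 2 and 3. After mast cell supernatant it had 157.6 and 186.9 CPM in batch 1, 66.4 CPM in batch 2, and 112.0 and 115.5 CPM in batch 3. Untreated cells had 98.6 and 96.6 CPM in batch 1, 43.8 and 40.8 CPM in batch 2, and 126.6 and 87.3 CPM in batch 3. All treated libraries lay above the untreated ones of their batch, except those of mast cell supernatant in batch 3, which lay between the 2 untreated libraries. The model gave log2 differences of 0.63 ± 0.15 for trap supernatant and 0.50 ± 0.13 for mast cell supernatant (SE), against untreated cells. Within batches 1, 2 and 3 they were 0.95, 0.51 and 0.46 for trap supernatant and 0.81, 0.65 and 0.11 for mast cell supernatant. Ccr1 thus differed most in batch 1 and least in batch 3.

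Ccr2, the Ccl2 receptor gene (ENSMUSG00000049103.13), had 57.7, 47.0 and 130.8 CPM with trap supernatant in batches 1, 2 and 3. In cells given mast cell supernatant it had 54.4 and 44.4 CPM in batch 1, 44.3 CPM in batch 2, and 119.8 and 134.9 CPM in batch 3. Untreated cells had 52.9 and 48.6 CPM in batch 1, 41.2 and 32.9 CPM in batch 2, and 92.7 and 76.3 CPM in batch 3. Treated and untreated libraries overlapped in batch 1 for mast cell supernatant, and elsewhere the treated ones were higher. The log2 difference was 0.38 ± 0.12 for trap supernatant and 0.27 ± 0.11 for mast cell supernatant (SE). By batch it was 0.18, 0.35 and 0.64 for trap supernatant, and -0.05, 0.27 and 0.60 for mast cell supernatant. The order over batches was thus the opposite of that of Ccr1, with the widest gap in batch 3. Without batch 3 the log2 difference was 0.27 for trap supernatant and 0.09 for mast cell supernatant.

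Cxcr4, the Cxcl12 receptor gene (ENSMUSG00000045382.6), had 218.5, 151.9 and 159.8 CPM with trap supernatant in batches 1, 2 and 3. With mast cell supernatant it had 247.3 and 327.9 CPM in batch 1, 160.0 CPM in batch 2, and 121.5 and 116.2 CPM in batch 3. Untreated cells had 160.2 and 164.0 CPM in batch 1, 220.2 and 236.5 CPM in batch 2, and 270.3 and 383.8 CPM in batch 3. Every treated library lay above the untreated ones in batch 1 and below them in batches 2 and 3. By batch the log2 difference was 0.43, -0.59 and -1.01 for trap supernatant and 0.81, -0.51 and -1.44 for mast cell supernatant. The pooled values, -0.48 ± 0.40 and -0.39 ± 0.35 (SE), average over these opposite signs. Without batch 3 the value was -0.09 for trap supernatant and 0.28 for mast cell supernatant.

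Ccrl2, the chemerin-presenting receptor gene (ENSMUSG00000043953.12), had 207.7, 23.0 and 34.3 CPM with trap supernatant in batches 1, 2 and 3. After mast cell supernatant it had 173.0 and 242.3 CPM in batch 1, 50.3 CPM in batch 2, and 20.7 and 16.4 CPM in batch 3. Untreated cells had 48.8 and 46.9 CPM in batch 1, 33.1 and 27.3 CPM in batch 2, and 74.3 and 69.5 CPM in batch 3. In batch 1 all treated libraries lay above the untreated ones and in batch 3 all lay below, and in batch 2 the mast cell supernatant library was above and the trap supernatant library below. As a ratio of geometric means (from log2 CPM with a prior count of 1), levels were 4.33 times those of untreated cells with trap supernatant in batch 1 and 0.477 times in batch 3. For mast cell supernatant they were 4.27 times in batch 1 and 0.257 times in batch 3. The log2 difference by batch was 2.12, -0.39 and -1.07 for trap supernatant and 2.10, 0.74 and -1.96 for mast cell supernatant. The pooled values of 0.10 ± 0.74 and 0.22 ± 0.66 (SE) describe no batch. They became -0.81 for trap supernatant and -0.72 for mast cell supernatant without batch 1, and 1.08 and 1.5 without batch 3.

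**Figure D2:**
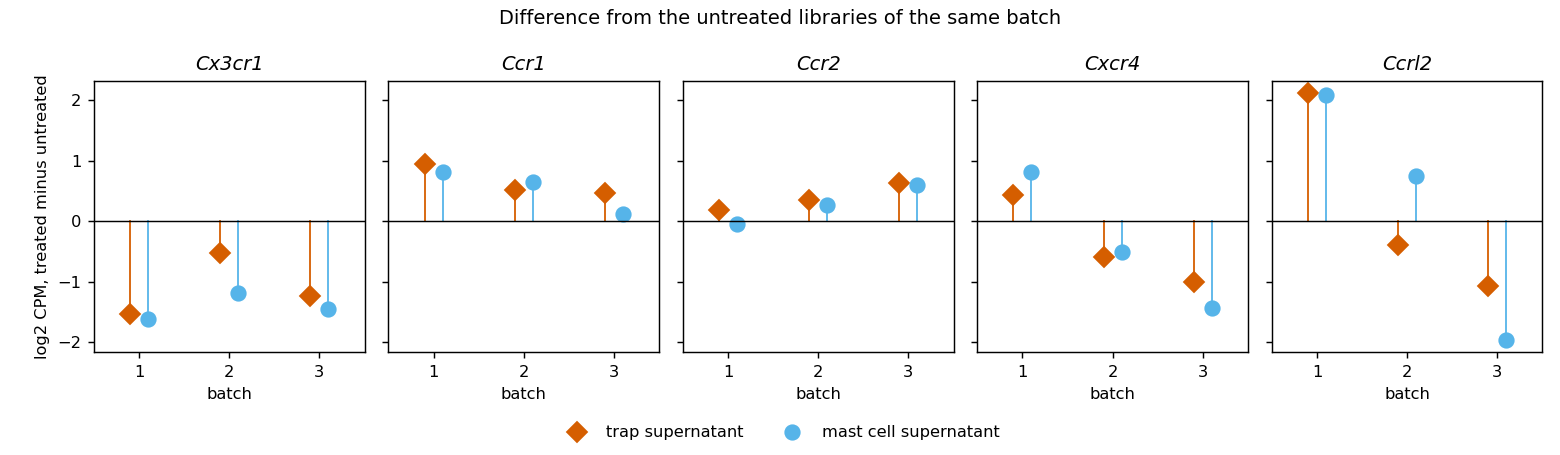
Difference in mean log2 CPM (prior count 1) between treated and untreated libraries of the same batch (y axis) in batches 1 to 3 (x axis), with trap supernatant as diamonds and mast cell supernatant as circles. Cx3cr1 lies below 0 in every batch, Cxcr4 passes from above 0 in batch 1 to below it in batches 2 and 3, and Ccrl2 spans 2.12 to -1.07 for trap supernatant and 2.10 to -1.96 for mast cell supernatant.

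Set against all genes, 1 of 5 members, Cx3cr1, passed a false discovery rate of 0.05 (edgeR's quasi-likelihood test) for trap supernatant against untreated cells, where 1.72% of 13061 genes passed, 0.919% higher and 0.796% lower. The same 1 of 5 passed for mast cell supernatant, where 4.79% of genes passed, 2.17% higher and 2.62% lower. The members were chosen with these contrasts known, so nothing is read from these counts. For trap supernatant, Cx3cr1 did not pass without a batch term (log2 difference -0.97), without batch 3 (-0.98), or in the 9 libraries numbered 1 to 3 (-1.08). The fit of these 9, here called the replicate block, has the same batch term and fewer libraries. For mast cell supernatant Cx3cr1 passed under all 23 alternative settings. Ccr1 passed for both supernatants by DESeq2 and limma-voom. By edgeR it passed without batch 3, with log2 differences of 0.76 for trap supernatant and 0.75 for mast cell supernatant, and without untreated replicate 3, with 0.77 and 0.64. For trap supernatant it also passed without mast cell supernatant replicate 4 (log2 difference 0.64), and Ccr2 passed for mast cell supernatant without batch 1 (0.47). Since the members were chosen on these contrasts, nothing is read from whether a member passed under any setting.

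By direction within batches, Cx3cr1 was the 1 member below untreated cells in every batch with both supernatants, a pattern held by 2.73% of genes, and no member was above in every batch with both, a pattern held by 2.39%. Cxcr4 and Ccrl2 were above in batch 1 and below in batch 3, held by 5.37% of genes. Taking batch 1 alone, Ccr1, Cxcr4 and Ccrl2 were above untreated cells with both supernatants, as were 21.7% of genes, and in batch 3 alone Cx3cr1, Cxcr4 and Ccrl2 were below them, as were 17.3%. In a test of whether the difference from untreated cells varied between batches, 9.29% of all genes passed for mast cell supernatant, Cxcr4 and Ccrl2 among them (2 of 5 members). For trap supernatant 3.75% of all genes passed, Cx3cr1 and Ccrl2 among them (2 of 5 members), and each batch has 1 trap library, taken to vary like the other groups. The members were chosen with these values by batch known, so nothing is read from these counts either.

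The 2 supernatants were then compared with each other in the same fit of 14 libraries. The untreated libraries enter this contrast through the batch terms and the shared estimate of spread. Both earlier contrasts share the same 6 untreated libraries as their reference. Of all 13061 genes, 0 passed in edgeR, a share of 0%, with 569 at an unadjusted p under 0.05; DESeq2 called 11 and limma-voom 0. Of the 5 members, 0 passed by any of these tools, and 1, Cx3cr1, had an unadjusted p under 0.05 in edgeR. Cx3cr1 was 0.35 higher on the log2 scale with trap than with mast cell supernatant (95% interval 0.04 to 0.67; edgeR adjusted p = 1.0). This gap was 0.10 without the trap supernatant library of batch 2. The other members had log2 differences of trap minus mast cell supernatant of 0.14 for Ccr1 (-0.21 to 0.48), 0.11 for Ccr2 (-0.17 to 0.38), -0.09 for Cxcr4 (-1.01 to 0.84) and -0.11 for Ccrl2 (-1.75 to 1.52). These intervals, wide for Cxcr4 and Ccrl2, do not show that the supernatants act alike.

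The levels in untreated macrophages also differed between batches; they entered the differences by which the members were chosen and are given as a description. Against batch 1, Ccr1 differed by -1.2 on the log2 scale in batch 2, and Ccr2 was 0.72 higher in batch 3. Cxcr4 was 0.50 higher in batch 2 and 1.0 higher in batch 3. Ccrl2 differed by -0.66 in batch 2 and 0.58 in batch 3, and Cx3cr1 by 0.35 and -0.30. In a test of batch among the 6 untreated libraries 35.8% of 11689 genes passed (edgeR's quasi-likelihood test, Benjamini-Hochberg adjustment), the 5 members among them, and nothing is read from that count. Untreated Cxcr4 and Ccrl2 were at their highest in batch 3, where every treated library lay below them. Treated libraries also lay below untreated ones in batch 2, for Cxcr4 with both supernatants and for Ccrl2 with trap supernatant.

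Per kilobase of exon, the order of the members in untreated cells was Cxcr4 (132.3 ± 45.7 CPM per kb), Ccr1 (29.1 ± 11.9), Cx3cr1 (25.1 ± 5.06), Ccrl2 (19.2 ± 7.27) and Ccr2 (8.50 ± 3.35; SD, n = 6 each). Cxcr4 did not overlap with any other member in untreated libraries, and each of the others overlapped with its neighbours in this order. With trap supernatant the order was Cxcr4 (97.7 ± 20.1), Ccr1 (46.4 ± 23.0), Ccrl2 (34.0 ± 39.8), Cx3cr1 (12.7 ± 7.54) and Ccr2 (11.6 ± 6.75; n = 3 each). In cells given mast cell supernatant Cxcr4 stood at 107.6 ± 50.4, Ccr1 at 45.1 ± 16.3, Ccrl2 at 38.7 ± 39.1, Ccr2 at 11.8 ± 6.53 and Cx3cr1 at 8.81 ± 2.81 CPM per kb (n = 5 each). By these means over batches, Cx3cr1 stood next after Ccr1 in untreated cells, after Ccrl2 with trap supernatant and last with mast cell supernatant. This order did not hold within batches. With trap supernatant Cx3cr1 had 8.38 CPM per kb beside 8.53 for Ccr2 in batch 1. In batch 2 it had 21.5 beside 21.3 for Ccr1, and in batch 3 it had 8.41 beside 19.4 for Ccr2. With mast cell supernatant in batch 1 it had 8.90 and 7.03, above Ccr2 at 8.05 and 6.57 in the same libraries. Exon lengths were those of GENCODE release 21, which is later than the gene versions in the table.

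Other chemokine receptor genes were set beside the members. Ccr3, known as the eotaxin receptor, rose with both supernatants. Treated libraries lay above the untreated ones of their batch, except for mast cell supernatant in batch 3. There it had 85.2 and 90.4 CPM, against 88.4 and 64.9 CPM in untreated cells. Ccr3 averaged 62.1 ± 36.4 CPM with trap supernatant (SD, n = 3), 58.4 ± 27.0 CPM with mast cell supernatant (n = 5) and 43.2 ± 27.0 CPM in untreated cells (n = 6). Its log2 difference was 0.56 ± 0.11 for trap supernatant (edgeR adjusted p = 0.0157) and 0.40 ± 0.10 for mast cell supernatant (edgeR adjusted p = 0.0247). These calls were lost in 6 and 9 of the 23 alternative settings. Among them were leaving out batch 1 (log2 differences 0.47 and 0.40) and the 9 libraries of the replicate block (0.43 and 0.28). Cxcr3, a receptor better known on T cells, stood at 7.85 ± 2.11 CPM with trap supernatant, 8.76 ± 1.28 CPM with mast cell supernatant and 8.84 ± 1.62 CPM in untreated cells, and did not pass. Ccr1l1 and Cxcr2 were near 1 CPM and did not pass. Of 5 atypical receptors only Ackr4 passed the filter, under 1 CPM in the mean of each group and not called. Cmklr1, the signalling chemerin receptor gene, stood at 16.3 ± 2.13, 14.2 ± 4.90 and 16.0 ± 5.61 CPM with trap supernatant, mast cell supernatant and in untreated cells, and was not called in either contrast.

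**Figure D3:**
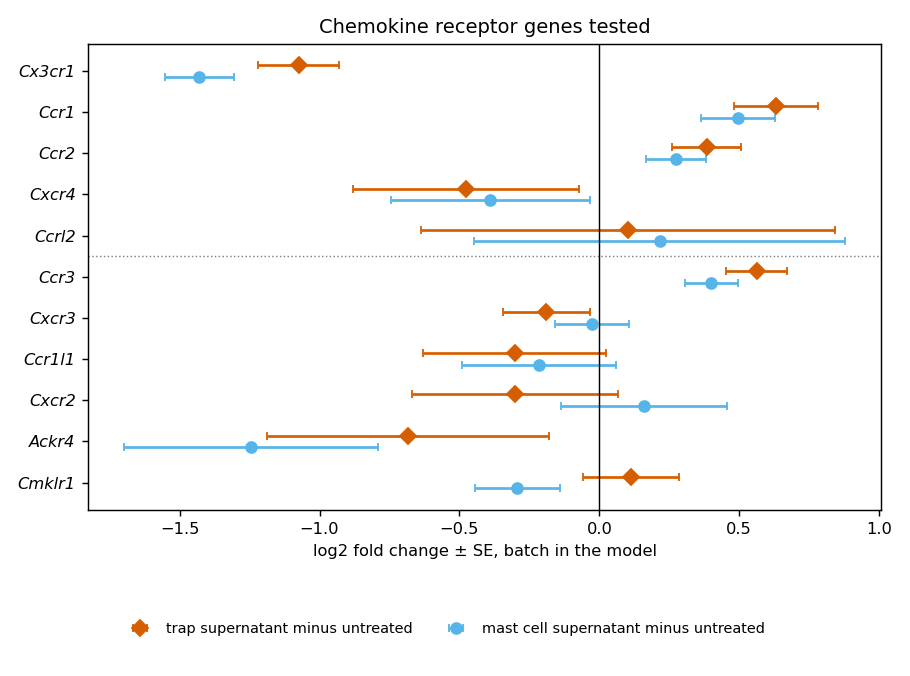
Log2 fold change against untreated cells with its SE (x axis, batch in the model) for the 5 members, above the dotted line, and 6 other chemokine and chemerin receptor genes, below it. Diamonds are trap supernatant and circles mast cell supernatant. Ccr3 lies at 0.56 and 0.40, and Ccrl2, whose batches differ in sign, has wide errors, SE 0.74 and 0.66.

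Among 14 receptors for other chemoattractants, 12 were tested. C5ar1, the complement C5a receptor gene, rose with both supernatants, by 0.58 ± 0.10 with trap supernatant (log2, SE; edgeR adjusted p = 0.0126) and 0.60 ± 0.09 with mast cell supernatant (edgeR adjusted p = 0.00225). It averaged 898.2 ± 70.9 CPM with trap supernatant, 918.5 ± 103.9 CPM with mast cell supernatant and 599.8 ± 82.1 CPM in untreated cells, and every treated library was above the untreated ones of its batch. The call of C5ar1 held in 17 of 23 alternative settings for trap supernatant and in 22 for mast cell supernatant. Ptafr, the receptor gene for platelet-activating factor, was called lower with mast cell supernatant only (log2 difference -0.21, against -0.12 with trap supernatant, which did not pass; the difference between them was 0.09 and did not pass). The call of Ptafr held in 8 of 23 alternative settings. Of the same list, DESeq2 also called C5ar2 for trap supernatant, and C5ar2, P2ry6 and S1pr1 for mast cell supernatant. For mast cell supernatant limma-voom also called C5ar2.

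Ligand genes were counted for each receptor. Of 6 Ccr1 ligands tested, Ccl6 rose with both supernatants, by 0.44 ± 0.05 and 0.38 ± 0.05 on the log2 scale (edgeR adjusted p = 0.000339 and 0.000145 for trap and mast cell supernatant). Of 3 Ccr2 ligands tested 0 passed in edgeR or DESeq2, with 1 at an unadjusted p under 0.05 in edgeR for trap supernatant and 0 for mast cell supernatant. By limma-voom, 1 of the 3, Ccl7, passed for mast cell supernatant. The 1 Cx3cr1 ligand and the 2 Cxcr4 ligands did not pass by any of these tools, and of 2 Ccrl2 ligands neither passed the filter on low counts. The geometric mean of Ccl2, the main Ccr2 ligand gene, was 7.48 times that of untreated cells with trap supernatant in batch 1 and 0.877 times in batch 3. After mast cell supernatant it was 6.83 times in batch 1, 6.20 times in batch 2 and 0.265 times in batch 3. Ccl3, a Ccr1 ligand gene, stood at 5.76 times in batch 1 and 0.573 times in batch 3 with trap supernatant, and at 6.26 and 0.234 times with mast cell supernatant. Both genes thus had ratios above 1 in batch 1 and below 1 in batch 3 with both supernatants, as Ccrl2 had. Cxcl12 averaged 1.11 ± 1.66 CPM with trap supernatant, 0.667 ± 1.05 CPM with mast cell supernatant and 1.28 ± 1.68 CPM in untreated cells. Cx3cl1, the fractalkine gene, averaged 7.81 ± 4.06, 6.18 ± 3.05 and 6.61 ± 4.74 CPM with trap supernatant, mast cell supernatant and in untreated cells.

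Of 23 genes of the signalling machinery behind these receptors, 0 passed for trap supernatant in edgeR, with 7 at an unadjusted p under 0.05, and DESeq2 and limma-voom each called 1, the kinase gene Lyn, which both also called for mast cell supernatant. For mast cell supernatant, Prex1, an exchange factor for Rac, fell by 0.30 ± 0.07 (log2, SE; edgeR adjusted p = 0.0177), and Vav1, another such factor, fell by 0.19 ± 0.05 (adjusted p = 0.0234). The list's median log2 difference was 0.04 for trap supernatant and 0.07 for mast cell supernatant, beside -0.01 over all genes for each. Of 15 genes that end or limit receptor signals, 2 rose and 0 fell with each supernatant. Rgs18, which speeds the shut-off of G proteins, rose by 0.82 ± 0.10 with trap supernatant (edgeR adjusted p = 0.000489) and 0.57 ± 0.09 with mast cell supernatant (adjusted p = 0.00184). Rgs14, of the same family, rose by 0.46 ± 0.10 (edgeR adjusted p = 0.0377) and 0.56 ± 0.09 (adjusted p = 0.00218). The call of Rgs14 for trap supernatant held in 10 of 23 alternative settings. Medians of that list were 0.12 and 0.16. Of 4 genes of receptor and ligand shedding, among them Adam10 and Adam17, 0 passed with either supernatant in edgeR, DESeq2 or limma-voom. In edgeR, 0 had an unadjusted p under 0.05 for trap supernatant and 1 for mast cell supernatant, and their medians were -0.06 and -0.18.

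Among annotated genes within 100000 bases of a member, Ccr3 passed with each supernatant. The 12 tested genes that did not pass had log2 differences of -0.73 to 0.74 for trap supernatant and -0.33 to 0.82 for mast cell supernatant. Around Cx3cr1, whose span also covers other genes, 7 were tested and none passed; Wdr48, at its end, had log2 differences of -0.13 for trap supernatant and -0.12 for mast cell supernatant. Csrnp1, a gene within the Cx3cr1 span, had log2 differences of 0.74 ± 0.81 and 0.82 ± 0.74, with a difference between batches that passed for both supernatants (edgeR adjusted p = 2.01e-06 for trap and 2.88e-08 for mast cell supernatant). Ltf, next to Ccrl2, had -0.06 and 0.12, and Gm6170, near Cxcr4, -0.73 and -0.33, and neither passed. For Ltf the difference between batches passed for both supernatants (edgeR adjusted p = 0.0204 for trap and 0.00133 for mast cell supernatant). For Gm6170 it passed for neither.

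The genes most like each member were found by Pearson correlation of batch-centred log2 CPM over the 14 libraries, among 9741 genes averaging 5 CPM or more. The points share batches, depth and the same untreated libraries, so the values only describe likeness. Cx3cr1 was most like Cdan1 (r = 0.98), Olfml3 (0.98) and Pdlim7 (0.97). Ccr1 was most like Isy1 (0.97), Riok3 (0.97) and Klf7 (0.96), and Ccr2 most like Tnfrsf11a (0.96), Rap1gds1 (0.95) and Rasa1 (0.94). Cxcr4 was most like Rnf19b (0.99), Sun2 (0.97) and Nfkb2 (0.97), and Ccrl2 most like Gem (0.99), Fbxo30 (0.99) and Zfand5 (0.99). Among the members themselves Cxcr4 and Ccrl2 had r = 0.79, Ccr1 and Cx3cr1 r = -0.81, and Ccr2 and Cxcr4 r = -0.83. Olfml3 averaged 35.5 ± 23.5 CPM with trap supernatant, 27.1 ± 14.3 CPM with mast cell supernatant and 56.7 ± 28.4 CPM in untreated cells, and Gem 16.4 ± 21.5, 19.5 ± 22.2 and 8.86 ± 4.08 CPM in the same order.

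Transcripts of mast cells were measured beside the receptors. Of 18 mast cell markers, 5 (Mcpt4, Tpsb2, Tpsab1, Mrgprb1 and Mrgprb2) were at 0 in untreated cells and none at 0 over either treated group. The sum of all 18 was 916 to 2863 CPM with trap supernatant, 912 to 2012 CPM with mast cell supernatant and 499 to 811 CPM in untreated cells, and in untreated cells it was nearly all Cd63, which macrophages also express. Without Cd63, a choice made after the data had been seen, the sum was 90.2, 803 and 2154 CPM with trap supernatant in batches 1, 2 and 3. In cells given mast cell supernatant it was 87.2 and 115 CPM in batch 1, 1505 CPM in batch 2, and 307 and 246 CPM in batch 3. Untreated libraries held between 7.22 and 10 CPM. The libraries of batch 1, with the highest Ccrl2 and Cxcr4 among treated cells, thus had the lowest sums of mast cell markers among them. Cx3cr1 was between 31.6 and 40.1 CPM in the treated libraries of batches 1 and 3, whose sums ran from 87.2 to 2154 CPM, and in batch 2 it was 96.6 CPM at a sum of 803 CPM with trap supernatant and 61.5 CPM at 1505 CPM with mast cell supernatant. The part of mast cell RNA in the receptor values was not tested. Of 15 neutrophil markers the sum was 110 to 366 CPM, 99.5 to 376 CPM and 124 to 430 CPM with trap supernatant, mast cell supernatant and in untreated cells. Ly6g was at 0 with trap supernatant. By batch, the neutrophil sum was 204 to 264 CPM in batch 1, 99.5 to 140 CPM in batch 2 and 345 to 430 CPM in batch 3. Of 6 fibroblast markers the sum was 139 to 163 CPM in batch 2 and 8.44 to 29.5 CPM in the other batches. The part of these transcripts in the receptor values was not tested.

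**Figure D4:**
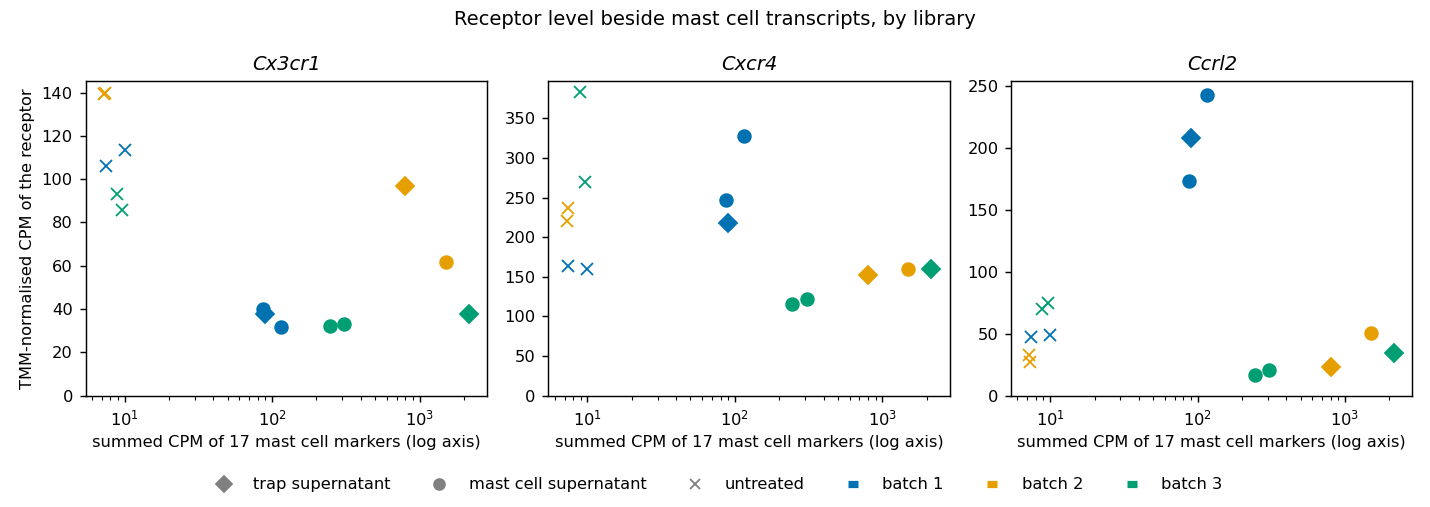
CPM of Cx3cr1, Cxcr4 and Ccrl2 (y axis, linear) against the summed CPM of 17 mast cell markers without Cd63 (x axis, log scale) in each of 14 libraries. Diamonds are trap supernatant, circles mast cell supernatant, crosses untreated cells, and colour is the batch. Untreated libraries lie between 7.22 and 10 CPM of markers, and the 3 treated libraries with the highest Ccrl2, 173.0 to 242.3 CPM, lie at 87.2 to 115 CPM.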

How the data were processed

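Poly(A) RNA was sequenced from 14 libraries. The deposited values are raw, whole-number read counts for each gene, made with featureCounts 2.0.0 on GRCm38, per the submitters' processing notes. For the aligner, the annotation release and the strand setting nothing is stated in these sources. Symbols were found by Ensembl identifier for 47224 of 47937 genes. Columns with an abbreviated name were matched to the labels by group and replicate number.

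In edgeR 4.0.16 (R 4.3.3) the model used filterByExpr by group (13061 genes), TMM, and a robust quasi-likelihood model of group and batch over all 14 libraries, with F tests, Benjamini-Hochberg adjustment over all genes tested and a false discovery rate of 0.05. Each SE was derived from the F statistic. Batch was tested in the 6 untreated libraries alone (11689 genes) and as an interaction with each supernatant. Within a batch, means of log2 CPM (prior count 1) were subtracted. The scripts were tested on simulated data.

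Alternatives were DESeq2 1.42.0, limma-voom (limma 3.58.1), RLE size factors, no filter, no batch term, a replicate block, and leaving out each batch or library. In each group, replicate numbers 1, 2 and 3 coincide with batches 1, 2 and 3 in the labels, so a number marks a shared batch. The replicate block is thus the main model of group and batch, fitted to the 9 libraries with these numbers alone. Deviations from group means correlated at 0.298 to 0.71 in the 9 pairs with the same number and at -0.592 to 0.173 in the 18 other pairs. Libraries of a group in the same batch differed by a chi-square per degree of freedom of 1.77 to 14.0 over genes with at least 10 counts, those of different batches by 29.1 to 74.7, and none were identical.

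The members and gene lists were chosen with earlier results of these data known. Named genes are the 5 members, other chemokine receptors with a mean of at least 5 CPM or a call, up to 6 called genes per other list, the 3 genes most like each member, and neighbours within 100000 bases. Ccl2, Ccl3, Ccl7, Cxcl12, Cx3cl1, Lyn, Lyz2, Mertk, Cd14, Nr4a1, C5ar1, C5ar2, P2ry6, S1pr1 and Ptafr were named after their values had been seen. Another chemokine receptor gene in the table is not reported here. Promoter windows come from RefSeq (GRCm38.p6).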

Additional observations from a re-analysis of the deposited data

Results flagged for a closer look

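Cx3cr1 in the mast cell supernatant library of batch 2, at 61.5 CPM, stood apart from the other 4 libraries of its group by Dixon's criterion; chance gives about 1 such flag in 20 groups. It is the only mast cell supernatant library of its batch, and untreated cells were also highest in that batch.

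Signs differed between batches for Ccrl2 and Cxcr4, with every treated library on one side of the untreated libraries in a batch and every one on the other side in another. The log2 difference of Ccrl2 from untreated cells in batches 1, 2 and 3 was 2.12, -0.39 and -1.07 for trap supernatant, and 2.10, 0.74 and -1.96 for mast cell supernatant. That of Cxcr4 was 0.43, -0.59 and -1.01 for trap supernatant, and 0.81, -0.51 and -1.44 for mast cell supernatant. The cause was not tested.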

How the results depend on the processing

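For trap supernatant against untreated cells, 224 genes passed in edgeR. The count was 409 in DESeq2, 15 with no batch term, 36 with the replicate block in 9 libraries, 116 without batch 1 and 88 without batch 2. Leaving out 1 library gave 97 to 280, with the lowest counts of 97, 131, 134 and 137 without trap supernatant replicate 3, untreated replicate 5, untreated replicate 2 and trap supernatant replicate 1. Of the members, 1 passed, 2 in DESeq2 and limma-voom, 0 with no batch term, 0 with the replicate block, and 1 to 2 with 1 library left out. For mast cell supernatant against untreated cells, 625 genes passed, 62 with no batch term, 84 with the replicate block and 231 without batch 2, and 449 to 751 with 1 library left out. Of the members 1 passed, 2 in DESeq2 and limma-voom and without batch 1 or batch 3, and 1 to 2 with 1 library left out. In the 9 libraries of the replicate block the call of Cx3cr1 for trap supernatant was lost, as were those of Ccr3 and Rgs14 for both supernatants. For mast cell supernatant the calls of Ptafr, Ccl6, Prex1 and Vav1 were also lost. Those of C5ar1 and Rgs18 were not lost. That fit has the batch term of the main model and fewer libraries, so these losses show no effect of blocking. Of the 23 alternative settings, the call of Rgs18 held in 22 for each supernatant, that of Ccl6 in 22 for trap and 21 for mast cell supernatant, and those of Prex1 and Vav1 for mast cell supernatant in 18 and 13.

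Between the supernatants 0 genes passed, 11 in DESeq2, 1 without batch 3, and 0 to 3 with 1 library left out; of the members 0 to 0 passed. Values of trap minus mast cell supernatant that changed sign, none of them called, were -0.0206 for Ccr2 and -0.0482 for Ptafr with no batch term, 0.0168 for Cxcr4 with the replicate block and 0.24 without batch 1, 0.23 for Ccrl2 without batch 2, and 0.0157 for C5ar1 without batch 3. With 1 library left out Ccrl2 ran from -0.82 to 0.18 and Cxcr4 from -0.25 to 0.13. Among untreated libraries 4189 genes differed between batches, 1987 to 6912 with 1 left out, and all 5 members in each case.

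For differences between batches in the response to mast cell supernatant, 1214 genes passed and 718 to 2417 with 1 library left out; of the members 2 passed, 4 with no filter on low counts and 2 to 4 with 1 library left out. For trap supernatant 490 passed, 892 with no filter and 298 to 1350 with 1 left out; of the members 2 passed, 4 with no filter and 2 to 4 with 1 left out. Fits without mast cell supernatant replicate 2, or without a trap library, could not be made for its own interaction, since a batch would have no such library. The highest counts of all 3 tests of batch came without untreated replicate 3. The causes were not tested.

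Ccrl2 against untreated cells changed sign without batch 1, without untreated replicate 1 or 4, and without trap supernatant replicate 1 or mast cell supernatant replicate 2 in their own contrast. Libraries of 1 batch may be technical replicates, which would make every p-value here too small. Each member had 198 or more counts in each library.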
